A study of Mus musculus with 4 samples.

Results

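Transcripts of the Mediator complex were counted in 4 cultures of MPC11, an antibody-secreting plasmacytoma line of the mouse. Members were chosen by symbol, as the genes whose symbol is Med and a number, with an optional l for the paralogs Med12l and Med13l, together with Cdk8 and Ccnc. This gave 32 members of the 22722 genes counted in each library, and all 32 had enough counts to be tested. The Ell2-KD group was 2 cultures with a lentiviral pLKO.1 hairpin (shELL2-1C7) against Ell2, whose product speeds elongation by RNA polymerase II. The shGFP group was 2 cultures with the same kind of vector aimed at GFP. Both groups were exposed to virus for 18 h, selected in puromycin for 72 h and expanded for a further 72 h. The knockdown rests on 1 hairpin in 1 cell line, and although its replicates are labelled as biological, nothing states that they were separate transductions, so p-values measure only the spread between these samples.

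The symbols themselves read no measured value, but the family, with Cdk8 and Med26 put forward as its leading genes, was proposed after the difference between Ell2-KD and shGFP had been seen in these libraries. Every value of that difference below therefore describes the members, and counts of members are set beside the same count over all genes tested without support being drawn from them.

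Mediator is a large assembly that links transcription factors bound at enhancers and promoters to RNA polymerase II. Its tail subunits receive most activators, its head and middle contact the polymerase and the general transcription factors, Med14 runs through the complex as a scaffold, and Med27 to Med30 lie where head and tail meet. A separable kinase module of Cdk8 or its paralog Cdk19, cyclin C (Ccnc), Med12 or Med12l and Med13 or Med13l docks on the core and hinders its binding to polymerase. In human cells the middle subunit MED26 holds a domain that binds elongation complexes containing ELL and EAF proteins, which ties Mediator to the family of the depleted factor.

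The promoter windows of Cdk8 and Med12l, the members with the widest differences between the groups, and of Med26 are shown because these genes carry most of the results below. Each is 300 bases of the sense strand from 250 bases before the start of the transcript to 50 after it, from RefSeq on GRCm38.p6, and capitals mark the CpG dinucleotides.
Cdk8, chr5:146231000-146231299, + strand: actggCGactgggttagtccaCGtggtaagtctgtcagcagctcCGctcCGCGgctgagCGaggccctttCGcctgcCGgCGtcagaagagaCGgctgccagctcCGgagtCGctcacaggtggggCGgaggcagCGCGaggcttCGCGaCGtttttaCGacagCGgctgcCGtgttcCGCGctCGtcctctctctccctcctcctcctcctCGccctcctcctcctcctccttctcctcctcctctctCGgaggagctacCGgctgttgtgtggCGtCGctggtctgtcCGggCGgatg
Med12l, chr3:59006728-59007027, + strand: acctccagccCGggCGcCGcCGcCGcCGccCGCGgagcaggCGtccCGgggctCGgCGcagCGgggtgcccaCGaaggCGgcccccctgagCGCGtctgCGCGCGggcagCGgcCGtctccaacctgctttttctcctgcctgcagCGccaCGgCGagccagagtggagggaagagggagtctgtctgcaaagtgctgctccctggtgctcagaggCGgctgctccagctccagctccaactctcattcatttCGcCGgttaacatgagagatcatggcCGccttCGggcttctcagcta
Med26, chr8:72548261-72548560, - strand: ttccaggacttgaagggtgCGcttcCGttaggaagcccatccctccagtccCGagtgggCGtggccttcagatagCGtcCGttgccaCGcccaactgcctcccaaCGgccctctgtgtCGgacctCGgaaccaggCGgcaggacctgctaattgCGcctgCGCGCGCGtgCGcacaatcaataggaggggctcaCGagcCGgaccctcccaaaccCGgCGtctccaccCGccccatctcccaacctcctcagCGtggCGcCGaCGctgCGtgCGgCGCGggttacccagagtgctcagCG
The windows held 31, 30 and 31 CpG dinucleotides in that order, and their ratios of observed to expected CpG were 0.938, 0.843 and 0.938. Over the 28 members matched in the RefSeq table the median ratio was 0.841, against 0.389 over all 27025 genes of the table, taking the first listed window of each gene. The Med26 window held the NRF1 motif in 2 adjacent copies that begin 97 and 87 bases before the start, in letters of the opposite strand.

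Ell2, the targeted gene, stood at 87.8 and 115 CPM (library-normalised counts, scaled to the library total) in Ell2-KD replicates 1 and 2, against 938 and 996 CPM in shGFP replicates 1 and 2, and fell by 3.25 ± 0.23 (SE) on the log2 scale (edgeR quasi-likelihood test, Benjamini-Hochberg adjusted p = 0.00032). Libraries held 13914488 and 3496471 counts in Ell2-KD replicates 1 and 2, against 8323915 and 5088789 in shGFP replicates 1 and 2. Both extremes of depth thus fell in Ell2-KD, and 1 count was worth 0.0709 to 0.293 CPM. The 7 plasma cell markers summed to 16180 and 13040 CPM in Ell2-KD, against 20130 and 15540 CPM in shGFP. All 7 had a negative log2 change, with a median of -0.39 and a range from -4.56 to -0.05. Groups did not overlap for 6 of the 7, all lower in Ell2-KD, beside 18.5% of all genes tested that were lower without overlap. Markers of other cell types were low. Summed over 4 genes each, T cell markers ran from 0.355 to 1.76 CPM in Ell2-KD and from 1.67 to 2.38 CPM in shGFP, myeloid markers from 3.51 to 4.11 and from 1.19 to 2.58 CPM, and stromal markers from 4.68 to 8.20 and from 2.62 to 6.55 CPM. Lyz2, a myeloid marker, was at 0 counts in 3 of the 4 libraries. The myeloid marker Itgam had 47 and 6 counts in Ell2-KD, against 8 and 9 in shGFP. The stromal marker Pdgfra had 58 and 25 counts in Ell2-KD, against 15 and 21 in shGFP, and both genes had enough counts to be tested. In RNA of whole cultures, fewer cells with a transcript and less of it per cell cannot be told apart.

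The summed level of Mediator transcripts overlapped between the groups. The 32 members summed to 2276 and 2198 CPM in Ell2-KD, against 2253 and 1975 CPM in shGFP, which is 0.231% and 0.215% of all counts in Ell2-KD and 0.227% and 0.196% in shGFP. The log2 change was positive for 18 members and negative for 14, with a median of 0.06, beside a median of -0.00 over the 11027 genes tested. No member passed an edgeR adjusted p of 0.05, where 0.0453% of all genes tested did (0.00907% higher and 0.0363% lower in Ell2-KD). With the replicate number as a block, 1 member (Cdk8) passed, beside 0.254% of all genes. At an unadjusted p under 0.05 edgeR gave 3 members, Cdk8, Med12l and Med10, where the background was 5.82%. DESeq2 called 2 members, Cdk8 and Med12l, beside 0.207% of all genes. The fitted difference was 2-fold or more for 2 members, beside 12.2% of all genes: Cdk8 was higher in Ell2-KD, beside 4.92%, and Med12l lower, beside 7.24%. Med12l met the edgeR count filter only through its level in shGFP, so its values only describe it.

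**Figure D1:**
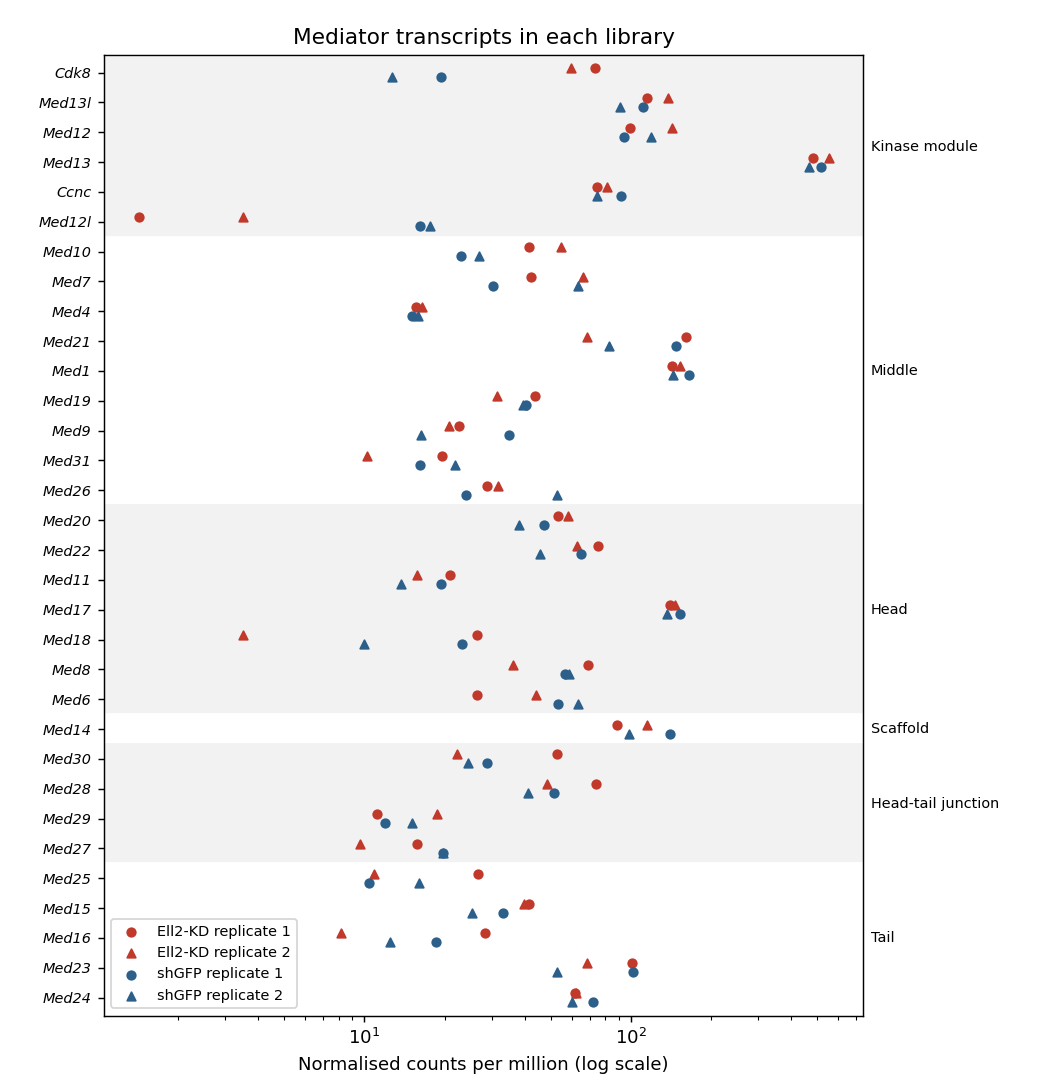
Normalised CPM (log axis) of the 32 members in each library, by position in the complex; Ell2-KD libraries are red and drawn above the blue shGFP libraries of the same gene, circles are replicates 1 and triangles replicates 2. Cdk8 lies at 59.4 and above in Ell2-KD and at 19.4 and below in shGFP, Med12l lies the other way round, and most other members have interleaved points.

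In the kinase module, the transcript of the kinase Cdk8 was about 4 times as abundant in the depleted cells. Cdk8 had 73.6 and 59.4 CPM in Ell2-KD replicates 1 and 2 (1037 and 203 counts), against 19.4 and 12.7 CPM in shGFP replicates 1 and 2 (163 and 64 counts). Both depleted libraries lay well above both controls. The mean was 66.5 ± 9.99 CPM in Ell2-KD and 16.1 ± 4.76 CPM in shGFP (SD, n = 2 each), a ratio of 4.14 and a log2 change of 2.04 ± 0.40 (SE; 95% interval 1.17 to 2.92). The edgeR adjusted p was 0.262 with all 4 libraries, and 0.229 to 0.284 with other scaling or a minimum mean of 10 CPM. It was 0.0182 with no filter on low counts, where 0.111% of all genes passed. With the replicate block it was 0.0356, where 0.254% of all genes passed. The DESeq2 adjusted p was 0.00653, where 0.207% passed. With 1 library left out the log2 change ran from 1.77 (without shGFP replicate 2) to 2.40 (without shGFP replicate 1). No exon of Cdk8 overlaps another gene in GENCODE M21. No transcript of another gene matched its longest transcript at 95% identity over 100 bases. That transcript has 3896 bases, against 9832 over all exons, and the remaining exon sequence was not searched. Of its protein-coding neighbours in RefSeq, Rnf6, a ubiquitin ligase gene, stood at 121 and 107 CPM in Ell2-KD, against 67.9 and 119 CPM in shGFP, and Wasf3 had 3 and 2 counts in Ell2-KD and 1 and 1 in shGFP. The neighbours were looked up after the values of Cdk8 had been seen.

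Cdk19, the paralog that can take the place of Cdk8 in the module, did not show this difference. It stood at 57.3 and 27.5 CPM in Ell2-KD, against 42.7 and 41.1 CPM in shGFP, with a log2 change of 0.03 ± 0.42 (SE; 95% interval -0.89 to 0.95; edgeR adjusted p = 0.999). The difference between the changes of the 2 genes was not tested. Per kilobase of exon, the ratio of the Cdk8 to the Cdk19 level was 0.763 and 1.28 in Ell2-KD replicates 1 and 2, against 0.271 and 0.184 in shGFP replicates 1 and 2. With the length of the longest transcript in place of all exons, the same ratio was 1.91 and 3.22 in Ell2-KD, against 0.679 and 0.461 in shGFP. In Ell2-KD replicate 2 Cdk8 was the higher with either length, in Ell2-KD replicate 1 the order depended on the length, and in both controls Cdk8 was the lower with either length. The sum of Cdk8 and Cdk19 was 131 and 86.9 CPM in Ell2-KD, against 62.1 and 53.8 CPM in shGFP.

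Med12l, the paralog of the kinase-activating subunit Med12, was scarce in the controls and scarcer in the depleted cells. Its counts were 20 and 12 in Ell2-KD replicates 1 and 2, against 135 and 89 in shGFP replicates 1 and 2, or 1.42 and 3.51 CPM in Ell2-KD, against 16.1 and 17.7 CPM in shGFP. The 2 groups did not overlap, and the control mean was 6.85 times that of the depleted cells. Its Ell2-KD libraries alone would not have met the count filter. Med12l was tested because of its higher level in shGFP, so its p-values and interval only describe it. The log2 change was -2.85 ± 0.78 (SE; 95% interval -4.57 to -1.13; edgeR adjusted p = 0.541). The log2 change was -3.55 without Ell2-KD replicate 2 and -2.25 without Ell2-KD replicate 1. The DESeq2 adjusted p was 0.0497, where 0.207% of all genes passed. The edgeR adjusted p was 0.437 with no filter on low counts and 0.21 with the replicate block. Exons of Igsf10, on the opposite strand, overlap 15.3% of the exon bases of Med12l, and Igsf10 had 6 and 3 counts in Ell2-KD and 6 and 7 in shGFP.

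Med12 itself, which activates the kinase, stood at 99.0 and 143 CPM in Ell2-KD, against 94.6 and 118 CPM in shGFP (log2 change 0.18 ± 0.29, SE). Per kilobase, Med12l was 0.00865 and 0.0149 of Med12 in Ell2-KD, against 0.103 and 0.0900 in shGFP. Med13, the subunit that joins the module to the core, had the highest level of the family per kilobase of exon and stood at 484 and 552 CPM in Ell2-KD, against 518 and 467 CPM in shGFP (log2 change 0.07 ± 0.20, SE; 95% interval -0.38 to 0.53). Its paralog Med13l stood at 115 and 138 CPM in Ell2-KD, against 111 and 90.9 CPM in shGFP. These groups did not overlap, as for 35.8% of all genes tested, and differed by only 0.32 ± 0.28 on the log2 scale (SE; edgeR adjusted p = 0.959). Per kilobase, Med13l was 0.167 and 0.175 of Med13 in Ell2-KD, against 0.15 and 0.137 in shGFP. Cyclin C, the partner that Cdk8 needs for activity, stood at 74.3 and 81.4 CPM in Ell2-KD, against 91.9 and 74.8 CPM in shGFP, and its groups overlapped (log2 change -0.10 ± 0.29, SE). Of the 6 module genes, Cdk8 and Med12l were the only ones with a difference of 2-fold or more, and the 95% intervals of the other 4 lay within 2-fold either way.

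**Figure D2:**
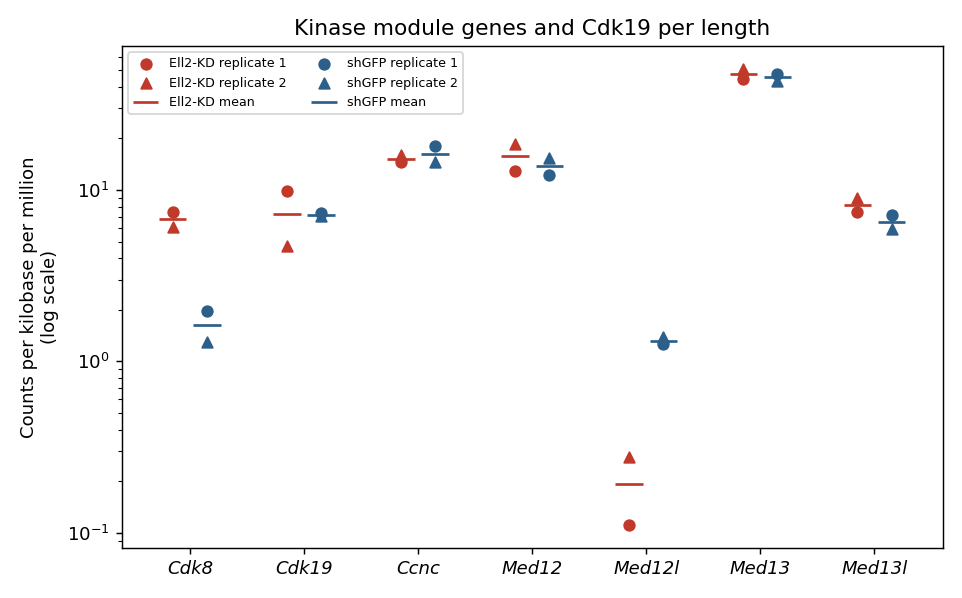
CPM per kilobase of exon (log axis) of the 6 kinase module genes and Cdk19 in each library, with Ell2-KD in red on the left and shGFP in blue on the right of each gene; points are libraries and bars are means of 2. Cdk8 is higher and Med12l lower in Ell2-KD, Med13 is the highest in both groups at 47.8 and 45.4, and the Cdk19 points of Ell2-KD straddle those of shGFP.

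In the middle, Med26, the subunit that docks elongation complexes, differed more between the control libraries than between the groups. It stood at 28.7 and 31.6 CPM in Ell2-KD replicates 1 and 2, against 24.0 and 52.8 CPM in shGFP replicates 1 and 2. Both depleted libraries lay between the 2 controls. The mean was 30.2 ± 2.04 CPM in Ell2-KD and 38.4 ± 20.4 CPM in shGFP (SD, n = 2 each), with a log2 change of -0.34 ± 0.46 (SE; 95% interval -1.35 to 0.66). It was 0.33 without shGFP replicate 2 and -0.80 without shGFP replicate 1, so the sign rested on shGFP replicate 2. An antisense transcript covers 12.7% of the exon bases of Med26, and its reads could not be told apart without a stated strand setting.

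Med10, a small middle subunit, had the highest change of the 26 members outside the kinase module. It stood at 41.3 and 54.4 CPM in Ell2-KD, against 23.0 and 27.0 CPM in shGFP. These groups did not overlap, as for 35.8% of all genes tested, and differed by 0.93 ± 0.39 on the log2 scale (SE; edgeR adjusted p = 0.822). A long non-coding RNA on the opposite strand overlaps 92.8% of its exon bases in GENCODE M21, so its value is uncertain. Med1, the subunit that binds nuclear receptors, stood at 143 and 153 CPM in Ell2-KD, against 165 and 143 CPM in shGFP. Med21, at the hinge of the middle, stood at 161 and 68.5 CPM in Ell2-KD, against 147 and 82.5 CPM in shGFP, and its groups overlapped. It was higher in replicate 1 of each group, which was also the deeper library. In its annotated transcript, 446 bases match the ribosomal protein pseudogene Rps26-ps1 at 98.43% identity. The other middle subunits, Med4, Med7, Med9, Med19 and Med31, had log2 changes from -0.33 to 0.20 and overlapping groups. The 9 middle genes had a median of -0.06, with 4 positive and 5 negative.

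In the head, which grips the polymerase, no gene reached a 2-fold difference. Med20, which pairs with Med18 in a jaw of the head, had the highest change, at 53.1 and 58.0 CPM in Ell2-KD, against 47.2 and 38.1 CPM in shGFP (log2 change 0.38 ± 0.34, SE). Med6, a conserved subunit at the contact of head and middle, had the lowest, at 26.5 and 44.2 CPM in Ell2-KD, against 53.3 and 63.3 CPM in shGFP (log2 change -0.73 ± 0.38, SE; edgeR adjusted p = 0.871). Neither gene's groups overlapped, as for 35.8% of all genes tested. Med17, the central head subunit, stood at 140 and 146 CPM in Ell2-KD, against 153 and 137 CPM in shGFP, with a log2 change of -0.02 ± 0.25 (SE; 95% interval -0.57 to 0.52). Med18 varied widely within Ell2-KD, with 372 and 12 counts in Ell2-KD replicates 1 and 2, or 26.4 and 3.51 CPM, against 23.1 and 9.92 CPM in shGFP. Its log2 change was 0.67 without Ell2-KD replicate 2 and -2.24 without Ell2-KD replicate 1. Med8, Med11 and Med22 had changes from -0.13 to 0.33, and the head median was -0.02.

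Med14, the scaffold, stood at 89.0 and 114 CPM in Ell2-KD, against 140 and 98.03 CPM in shGFP, and its groups overlapped (log2 change -0.23 ± 0.30, SE; 95% interval -0.88 to 0.43). At the junction of head and tail, Med30 had the highest change, at 52.6 and 22.2 CPM in Ell2-KD, against 28.7 and 24.4 CPM in shGFP (log2 change 0.50 ± 0.48, SE). Its high value came from Ell2-KD replicate 1 alone, without which the change was -0.26. Med27 had the lowest, at 15.7 and 9.66 CPM in Ell2-KD, against 19.8 and 19.6 CPM in shGFP, with both depleted libraries below both controls (log2 change -0.62 ± 0.53, SE; edgeR adjusted p = 0.959). Med28 and Med29 lay at 0.41 and 0.14, with overlapping groups.

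In the tail, where activators dock, Med25 had the highest change, at 26.6 and 10.8 CPM in Ell2-KD, against 10.4 and 16.1 CPM in shGFP (log2 change 0.52 ± 0.60, SE). This value rested on Ell2-KD replicate 1, without which it was -0.28. Med24 had the lowest, at 61.7 and 62.1 CPM in Ell2-KD, against 72.1 and 60.1 CPM in shGFP (log2 change -0.10 with an SE of 0.31). Med15, a target of several activators, stood at 41.5 and 39.8 CPM in Ell2-KD, against 33.0 and 25.4 CPM in shGFP (log2 change 0.48 ± 0.39, SE). Groups did not overlap for only 1 of the 5 tail genes, Med15, beside 35.8% of all genes tested. Med16 and Med23, which with Med24 form a part of the tail, had changes of 0.25 and 0.13, which ran from -0.92 to 0.87 and from -0.27 to 0.70 with a library left out. Of the 5 tail genes, 4 were positive, with a median of 0.25, but the sign held for only Med15 whichever library was left out.

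**Figure D3:**
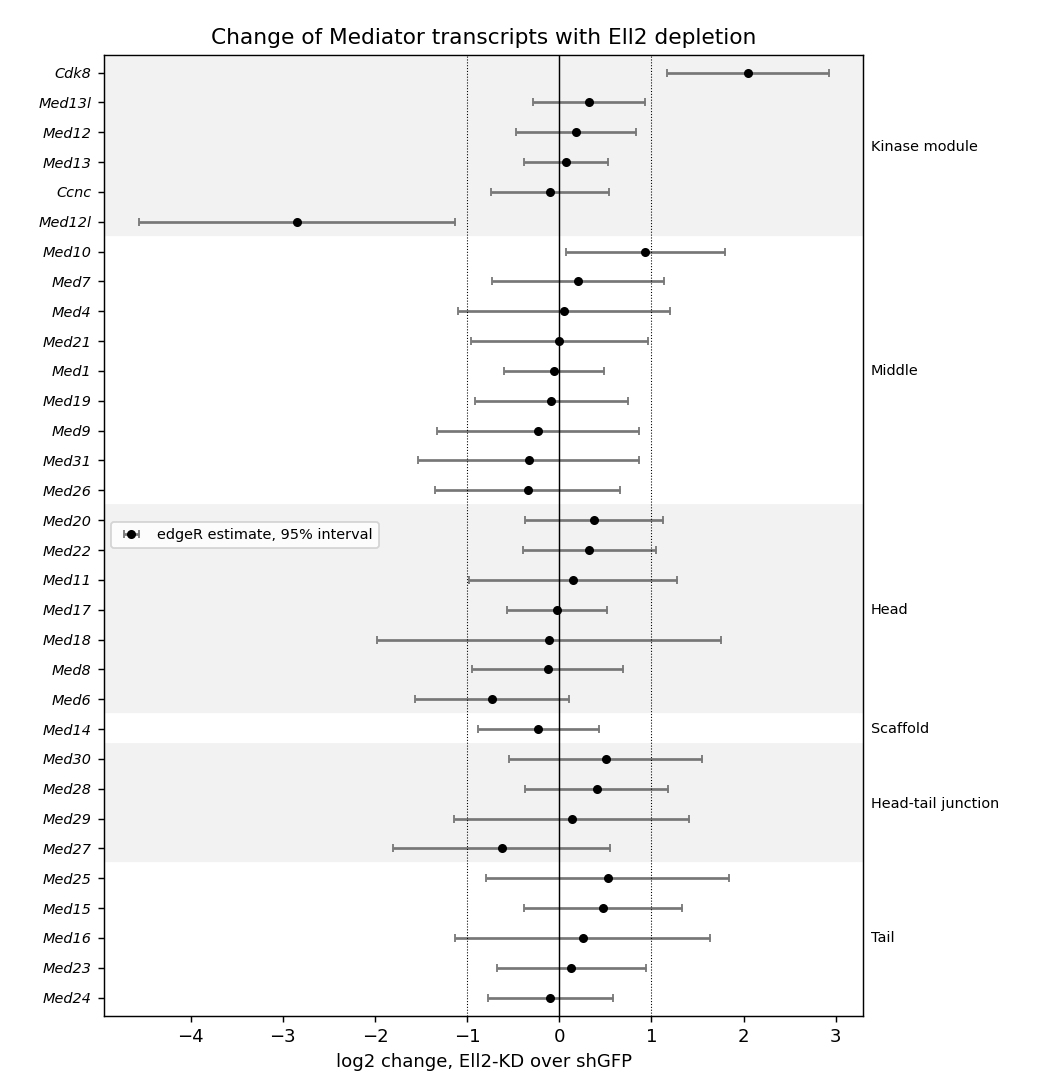
Log2 change (Ell2-KD over shGFP) of the 32 members by position in the complex, with edgeR estimates as points and 95% intervals as bars; dotted lines mark a 2-fold difference either way. The intervals of Cdk8, from 1.17, and of Med12l, to -1.13, lie wholly beyond these lines, and those of 12 members lie wholly between them. That of Med12l only describes it, since Med12l was tested because of its higher level in shGFP.

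Across the family, groups did not overlap for 8 of 32 members, 5 higher (Cdk8, Med13l, Med10, Med20 and Med15) and 3 lower (Med12l, Med6 and Med27) in Ell2-KD, beside 35.8% of all genes tested (17.4% higher and 18.5% lower). The wider gap between replicates of a group exceeded the gap between the group means for 25 of 32 members, or 78.1%, beside 75.4% of all genes tested. Within replicate numbers 1 and 2 the median difference of the members was 0.10 and 0.09 on the log2 scale. The sign was the same in both numbers for 14 of 32 members, or 43.8%, beside 57.3% of all genes tested. The Cdk8 difference was 1.89 within number 1 and 2.18 within number 2, and that of Med12l was -3.11 and -2.18. The 95% intervals of 12 members lay within 2-fold either way, and those of Cdk8 and Med12l lay wholly beyond 2-fold. Med12l was tested because of its higher level in shGFP, so its interval only describes it. Those of the other 18 crossed a 2-fold limit, so that a change of that size was not bounded for these 18. Leaving out 1 library at a time gave both signs for 21 of 32 members, and the sign held in all 4 such fits for the other 11, Cdk8, Med12l, Med13l, Med4, Med6, Med10, Med15, Med20, Med22, Med27 and Med28.

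**Figure D4:**
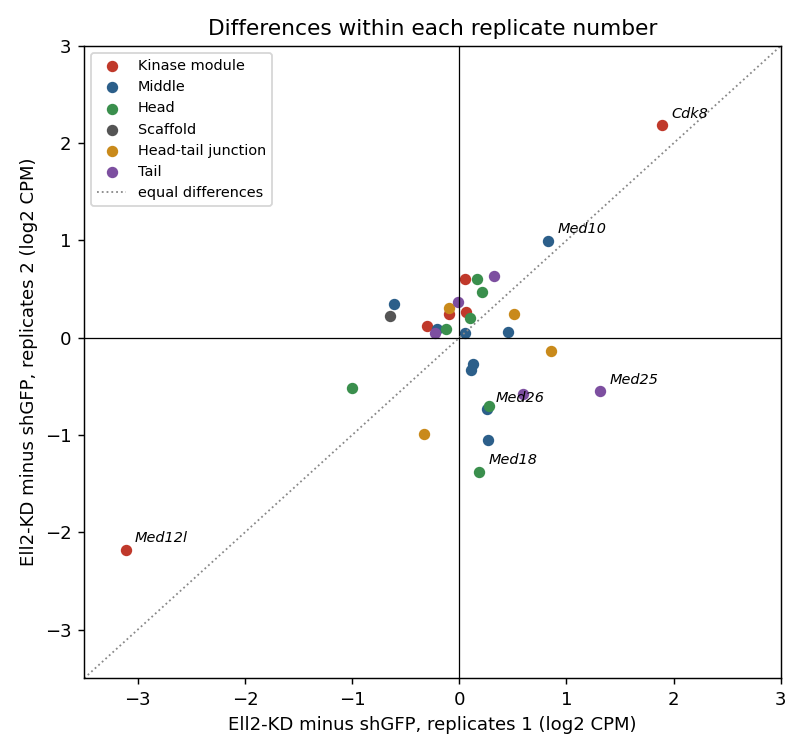
Difference of log2 CPM (Ell2-KD minus shGFP, pseudocount 0.5 CPM) within replicates 1 (horizontal) against that within replicates 2 (vertical) for the 32 members, coloured by position in the complex, with the line of equal differences dotted. Cdk8 at 1.89 and 2.18 lies far from the origin and close to that line. Med12l at -3.11 and -2.18 lies far out the other way and off the line, with the wider difference in replicates 1. Med25 and Med18 have opposite signs in the 2 numbers.

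Levels within the complex were compared per kilobase of exon, since subunits differ in transcript length. In shGFP the highest were Med13 at 45.4, Med6 at 40.3 and Med17 at 34.3 CPM per kilobase. The lowest were Med12l at 1.32, Cdk8 at 1.63 and Med25 at 1.73, and the members at the middle of the order were Med26 at 12.8 and Med23 at 11.6. In Ell2-KD the mean of Cdk8 was 6.76 on this scale and that of Med13l 8.19. With the longest transcript as the length, Med21 at 67.1, Med6 at 55.0 and Med13 at 46.7 led in shGFP, and Med12l at 1.53, Med25 at 3.58 and Cdk8 at 4.12 remained the 3 lowest. Cdk8 was thus the member with the lowest level but 1 or 2 in the controls, well below its partners Ccnc at 16.3, Med12 at 13.8 and Med13 at 45.4 per kilobase of exon.

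The general transcription factors that meet Mediator at promoters were looked up as a list, TFIIA, TFIIB, TFIID, TFIIE, TFIIF and TFIIH. All 32 genes were found and tested. No gene passed an edgeR adjusted p of 0.05, where the background over all genes was 0.0453%. The unadjusted edgeR p fell below 0.05 for 1 gene, where the background was 5.82%. DESeq2 called none, where the background was 0.207%. Groups did not overlap for 13 of the 32, with 7 higher and 6 lower in Ell2-KD. The background for this was 35.8%, with 17.4% higher and 18.5% lower. The list had 12 positive and 20 negative changes and a median of -0.09. Gtf2a1, a TFIIA subunit, stood at 117 and 102 CPM in Ell2-KD, against 218 and 151 CPM in shGFP (log2 change -0.75 ± 0.27, SE; edgeR adjusted p = 0.754). Taf13, a small TFIID subunit, had 234 and 29 counts in Ell2-KD, against 25 and 27 in shGFP, or 16.6 and 8.49 CPM, against 2.98 and 5.36 CPM (log2 change 1.61 ± 0.79, SE; edgeR adjusted p = 0.865).

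Of 15 genes listed for the elongation complexes that dock on Med26, 14 were found and tested, with Ice2 under its older symbol Narg2. Ell2 fell, as given above, and no other gene passed with all 4 libraries, beside the backgrounds already given. Aff1, a scaffold of the super elongation complex, stood at 124 and 373 CPM in Ell2-KD replicates 1 and 2, against 131 and 203 CPM in shGFP. Its log2 change was 0.57 with all 4 libraries and 1.16 without Ell2-KD replicate 1, which rests on 1 Ell2-KD library. Ccnt2 and Ccnt1, cyclins of the kinase that releases paused polymerase, followed by p-value. Ccnt2 stood at 208 and 194 CPM in Ell2-KD, against 150 and 131 CPM in shGFP (log2 change 0.52 ± 0.24, SE; edgeR adjusted p = 0.859). Ccnt1 stood at 57.5 and 43.0 CPM in Ell2-KD, against 34.1 and 33.3 CPM in shGFP (log2 change 0.58 ± 0.36, SE; edgeR adjusted p = 0.906). The list had 6 positive and 8 negative changes and a median of -0.01.

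The members are spread over 17 mouse chromosomes in GENCODE M21, with 7 on chromosome 11 (Med1, Med7, Med9, Med11, Med13, Med24 and Med31), whose log2 changes ran from -0.33 to 0.20. In their promoter windows, 6 motifs were searched on both strands, and the share of genes with a match in any listed window was taken over the 28 members and over all 27025 genes. The NRF1 motif was matched in 14.3% of members (Med11, Med18, Med25 and Med26), beside 5.19% of all genes. The ETS motif CCGGAAGT was matched in 10.7% (Med15, Med17 and Med18), beside 4.31%. Both motifs contain CG, and the members' first listed windows were richer in CpG (median ratio 0.841, against 0.389 over all genes). The part of CpG content in these shares was not tested. The NF-Y motif CCAAT was matched in 39.3% beside 41.1%, the SP and KLF motif GGGGCGGGG in 10.7% beside 12.9%, TATAAA in 10.7% beside 15.7%, and the YY1 motif in 0 of 28 beside 0.995%. Neither the Cdk8 nor the Med12l window held any of the 6. The SP and KLF motif and the others do not contain one another, and these matches are letters in a window, not sites shown to be bound.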

How the data were processed

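SOLiD sequencing was done on RNA of 4 MPC11 cultures, which the labels' protocols call mRNA in one place and total RNA in another. The authors deposited raw read counts per gene symbol, 1 table a library, per the file headers. The submitters' processing notes name DESeq 1.4.1, HTSeq 0.5.3, SAMtools 0.1.11 and mm9; which aligner, annotation and strand setting were used is not given in the sources used here. All 22722 genes are named in each table.

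Testing used edgeR 4.0.16 in R 4.3.3 (filterByExpr, minimum count 10 and minimum total 15, TMM scaling, robust glmQLFit and glmQLFTest, two-sided), with all 4 libraries and a single term, Ell2-KD over shGFP. The filter left 11027 genes, over which Benjamini-Hochberg adjustment ran (threshold 0.05). The common biological coefficient of variation was 0.43. The SE is the log2 change divided by the root of the F statistic, and CPM are TMM-normalised. Pairs of libraries correlated at 0.884 to 0.929 in log2 CPM, and none were copies.

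Exon lengths (union of all exons), overlaps and near-identical transcripts (megablast, at least 95% identity over 100 bases) came from GENCODE M21 on GRCm38, not the authors' mm9, so lengths are approximate. Only the longest transcript of each member was searched for near-identical matches. Of the members, 17 overlap an exon of another gene and 14 match another gene's transcript, and all 32 matched by symbol. The RefSeq promoter table (GRCm38.p6) held 28 members, 24 of them with 1 window; positions are of that build.

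The members and lists were chosen with earlier results of these data known. Values in every library are given for Cdk8, Med26, the other kinase module genes, Med14, the highest and lowest change of each module, the 3 highest and 3 lowest levels per kilobase in shGFP, Ell2, and the 2 genes with the smallest p of each partner list. Other members with values were chosen after their values were seen. Alternatives were other scaling, filters, DESeq2 1.42.0, the replicate number as a block, another length, and leaving out each library. Some genes looked up beside the members are not reported here.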

Additional observations from a re-analysis of the deposited data

How the results depend on the processing

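Ell2 passed under every alternative run. The count of members past the threshold was 0 with RLE scaling, with library totals alone and with a minimum mean of 10 CPM (under which Med12l was not tested). It was 1 with no filter on low counts (Cdk8) and 2 in DESeq2 (Cdk8 and Med12l). The fit with the replicate number as a block gave 1 member (Cdk8, edgeR adjusted p = 0.0356). It gave 28 genes in all (0.254% of those tested), against 5 (0.0453%) without it. Deviations of same-numbered libraries correlated at 0.322, but 2 pairs do not show that the numbers pair the samples. Of all genes tested, 0.0544% passed with RLE scaling, 0.0181% with library totals alone and 0.0595% with a minimum mean of 10 CPM. With no filter 0.111% passed, and in DESeq2 0.207%. In each fit with a library left out, the lone library of a group is assumed to vary like the other group.

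The median log2 change of the members ranged from -0.065 to 0.118 with a library left out. Of the elongation complex genes, only Ell2 passed under every alternative that used all libraries. No pre-initiation factor passed under any alternative run. None of the 20 named genes other than Ell2 was called in the fit as reported, so no call could be lost. Alternatives that used all libraries gave 4 calls, of Cdk8 and Med12l. Med17 changed sign with no filter (0.02) and ranged from -0.104 to 0.073 with a library left out. Signs changed with a library left out for 21 of 32 members, among the named ones also for Med26 (-0.80 to 0.33), Ccnc (-0.244 to 0.068), Med12 (-0.10 to 0.42), Med13 (-0.017 to 0.167), Med14 (-0.466 to 0.062), Med24 (-0.224 to 0.053), Med25 (-0.28 to 1.02) and Med30 (-0.26 to 0.99). The causes were not tested. Levels per kilobase moved beyond the control SD for 11 of 16 named members when the longest transcript set the length.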
